A study of Mus musculus with 14 samples.

Results

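The C-type lectin domain genes described here were all genes with a symbol that starts with Clec and a digit, without Clec4f and Clec4g. By this rule 30 of the 19505 gene symbols measured on the array were members, each read by 1 probe set. They were measured on 14 Clariom S mouse arrays, a gene-level microarray, with 1 array per sample. The animals were adult male wild-type (WT) C57Bl6 mice, all kept for 2 weeks either on CDAA supplemented with cholesterol, glucose and fructose or on CSAA, the control diet. Total liver on CDAA and total liver on CSAA had 4 arrays each, from a caudal lobe taken after the heart was perfused with saline. Primary hepatocytes on CDAA and primary hepatocytes on CSAA had 3 arrays each, from livers digested in a collagenase perfusion of 2 steps. The labels name 4 independent preparations of total liver and 3 of hepatocytes, and do not say how many animals a preparation holds. The comparison of the diets within each tissue asks which of these genes differ in their RNA with the diet, once in the whole organ and once in cells prepared as hepatocytes.

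C-type lectin domains are protein folds that bind sugars, lipids or other proteins, in many cases with the help of calcium. On macrophages and dendritic cells, receptors of this family bind microbial glycans and material of dead cells. Some pass the signal on through adaptor proteins with an activating motif and the kinase Syk, and others carry an inhibitory motif that recruits phosphatases. Other members are found on endothelial cells and platelets, act as ligands of natural killer (NK) cell receptors, or are secreted or intracellular.

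Of the 30 members, 23 lie on chromosome 6, many of them side by side. In the RefSeq order of protein-coding genes (GRCm38.p6), Clec4a1, Clec4a3, Clec4a4, Clec4b1, Clec4a2, Clec4b2, Clec4n, Clec4d and Clec4e are 9 consecutive genes. Clec2m, Clec12a, Clec12b, Clec1b, Clec9a and Clec1a are another 6. Members of 1 block are close relatives, and cross-hybridization between their probe sets was not tested.

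RefSeq gave a promoter for 23 of the 30 members (GRCm38.p6), here the 250 bases before the gene's start. The promoters of Clec12a, Clec4e and Clec5a are shown because these myeloid receptors were higher on CDAA in both tissues and each holds the core of the site of PU.1, a transcription factor of myeloid cells, more than once. That of Clec1b, higher in both tissues too, is shown as one without it. Clec4a1 and Clec4b1, also higher in both tissues, hold it more than once as well and are not shown. The myeloid or dendritic members Clec4a2, Clec4a3 and Clec9a were higher in both tissues and lack it. Clec14a, listed as endothelial, holds it, as do Clec11a, Clec16a, Clec18a and Clec2l. Capitals mark GAGGAA, searched on both strands, so that it also appears as TTCCTC. Clec12a is at chr6:129349994-129350243 on the plus strand, Clec4e at chr6:123289872-123290121 on the minus strand, Clec5a at chr6:40585806-40586055 on the minus strand and Clec1b at chr6:129397047-129397296 on the plus strand.
Clec12a: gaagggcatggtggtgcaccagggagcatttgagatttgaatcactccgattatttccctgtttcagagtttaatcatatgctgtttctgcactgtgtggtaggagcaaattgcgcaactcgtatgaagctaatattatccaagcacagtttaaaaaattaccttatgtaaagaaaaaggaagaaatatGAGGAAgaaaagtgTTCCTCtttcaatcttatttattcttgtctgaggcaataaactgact
Clec4e: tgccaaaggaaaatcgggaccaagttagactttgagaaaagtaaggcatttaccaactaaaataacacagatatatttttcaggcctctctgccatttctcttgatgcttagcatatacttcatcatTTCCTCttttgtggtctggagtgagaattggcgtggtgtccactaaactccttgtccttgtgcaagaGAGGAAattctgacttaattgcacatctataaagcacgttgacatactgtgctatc
Clec5a: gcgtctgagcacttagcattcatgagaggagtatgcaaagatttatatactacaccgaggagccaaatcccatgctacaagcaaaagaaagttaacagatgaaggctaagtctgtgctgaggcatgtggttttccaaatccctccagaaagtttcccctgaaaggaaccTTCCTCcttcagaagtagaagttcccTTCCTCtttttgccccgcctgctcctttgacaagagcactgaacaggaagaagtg
Clec1b: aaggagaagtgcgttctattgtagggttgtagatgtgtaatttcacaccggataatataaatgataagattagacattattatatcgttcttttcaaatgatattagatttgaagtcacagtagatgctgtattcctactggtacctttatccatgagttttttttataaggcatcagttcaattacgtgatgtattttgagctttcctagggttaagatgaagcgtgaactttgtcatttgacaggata

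GAGGAA was found in 12 of the 23 member promoters, against 23.3% of all 32851 promoters in the table. In Clec12a its 2 matches begin 61 and 47 bases before the start, in Clec4e 123 and 56 bases before it, and in Clec5a 81 and 55 bases before it. Of the 13 members higher on CDAA in both tissues, 11 had a promoter in the table and 7 of these held the motif. Letters of the C/EBP family's site (TTNNGCAA) were found in 4 member promoters (9.56% of all), of AP-1 (TGANTCA) in 5 (6.75% of all) and of GATA factors (GATAA) in 9 (22.6% of all), 3 times in Clec1b. The motifs were chosen with the results known, and a match says only that the letters are there.

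Values are log2 intensities, on which a difference of 1 is a doubling, and the tissues appear to have been normalized as 2 sets, so levels are set side by side only within a tissue. Within a group, the correlation between arrays over probe sets was 0.990 to 0.995 for total liver and 0.952 to 0.983 for hepatocytes. Hepatocyte arrays spread more around their group means (root mean square 0.363 to 0.594) than total liver arrays (0.229 to 0.320), and replicate 1 of the hepatocytes on CDAA spread most. Albumin (Alb) averaged 19.3 in both total liver groups and 19.8 in both hepatocyte groups, and none of the 10 hepatocyte markers listed lay wholly under background in any group. Their median log2 difference, CDAA minus CSAA, was -0.21 in total liver and -0.53 in hepatocytes. Asgr1 (-0.45) and Hnf4a (-0.52) were lower in total liver (limma adjusted p = 0.036 and 0.040), calls kept in 6 and 7 of 15 alternatives. In hepatocytes none passed, and 3 were lower at an unadjusted limma p under 0.05. The array's 5222 intron control probe sets, which read unspliced sequence, served as background. Their 95th percentile was 9.96 to 10.2 on the total liver arrays and 6.84 to 8.01 on the hepatocyte arrays.

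In total liver 18 of the 30 members passed the test, 14 higher and 4 lower on CDAA. Over all 22206 probe sets tested, 20.8% passed, 11.7% higher and 9.05% lower (limma, Benjamini-Hochberg adjusted p under 0.05 over all of them). The median log2 difference of the members was 0.16, beside -0.09 over all probe sets tested. In primary hepatocytes 13 of the 30 passed, all higher, where 8.48% of all probe sets passed, 6.53% higher and 1.95% lower. None was lower by limma, nor at an unadjusted p under 0.05. The members' median log2 difference there was 0.85, beside -0.13 over all probe sets. All 13 were also among the 14 higher in total liver, and Clec11a was the other. The 2 tissues share no arrays. In either scaling tried beside the deposited one, centring on array medians or quantile normalization of all arrays together, total liver had 12 members higher and 6 lower. Clec14a and Clec1a no longer passed there, and Clec16a and Clec2g passed as lower. With 1 spread estimated from all 14 arrays, 13 members passed in total liver (10.3% of all probe sets) and 15 in hepatocytes (18.7% of all). The members' values also separated without a test: in total liver the CDAA arrays lay wholly above the CSAA arrays for 14 members (13.1% of all probe sets) and wholly below for 4 (12% of all), 25.1% of all probe sets being separate either way. In hepatocytes they lay wholly above for 15 members (12.4% of all, and 26.6% separate either way), and for the other 15 the groups overlapped.

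**Figure D1:**
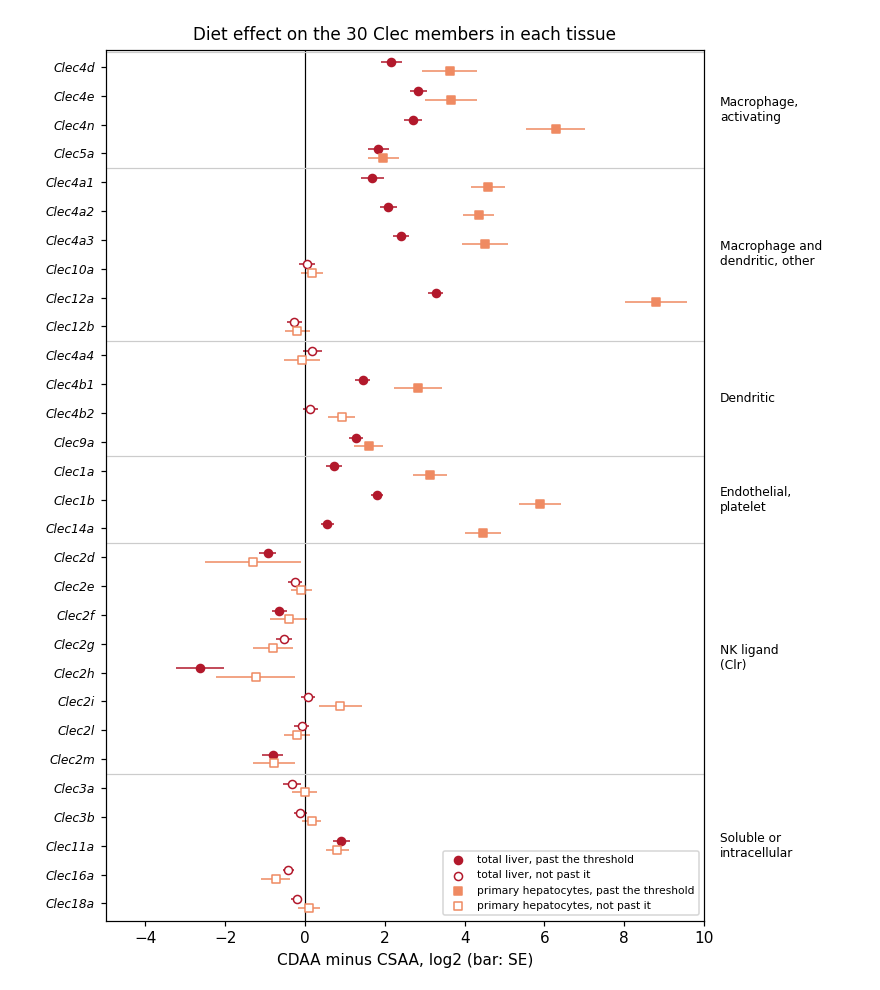
CDAA minus CSAA log2 difference (x axis) of each of the 30 members, grouped by role, in total liver (circles) and primary hepatocytes (squares); bars are standard errors and filled symbols passed the test. Of the 14 receptors of macrophages and dendritic cells, 10 lie to the right with filled symbols in both tissues, while Clec10a, Clec12b, Clec4a4 and Clec4b2 have open symbols in both. Clec12a is farthest to the right at 3.28 in total liver and 8.80 in hepatocytes, and total liver differences of the Clec2 genes lie at or left of 0 except Clec2i at 0.08.

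Most members lay within the range of the intron controls. All arrays of a group lay above the 95th percentile of their own intron controls for 3 members in total liver on CDAA (Clec12a, Clec1b and Clec2d; 19.8% of all probe sets) and for 2 on CSAA (Clec1b and Clec2d; 18.7% of all). In hepatocytes this held for 8 members on CDAA (25.3% of all) and for 2 on CSAA (Clec2d and Clec2h; 21.9% of all). Wholly under it lay 27 members in total liver on either diet, 18 in hepatocytes on CDAA and 27 in hepatocytes on CSAA. For a member under the percentile on both diets the log2 difference is given without a fold. Where only the CSAA group was wholly under it, the fold is given as the least that the percentile allows, and is left out where the percentile allows no bound (Clec4d and Clec4b1 in hepatocytes).

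**Figure D2:**
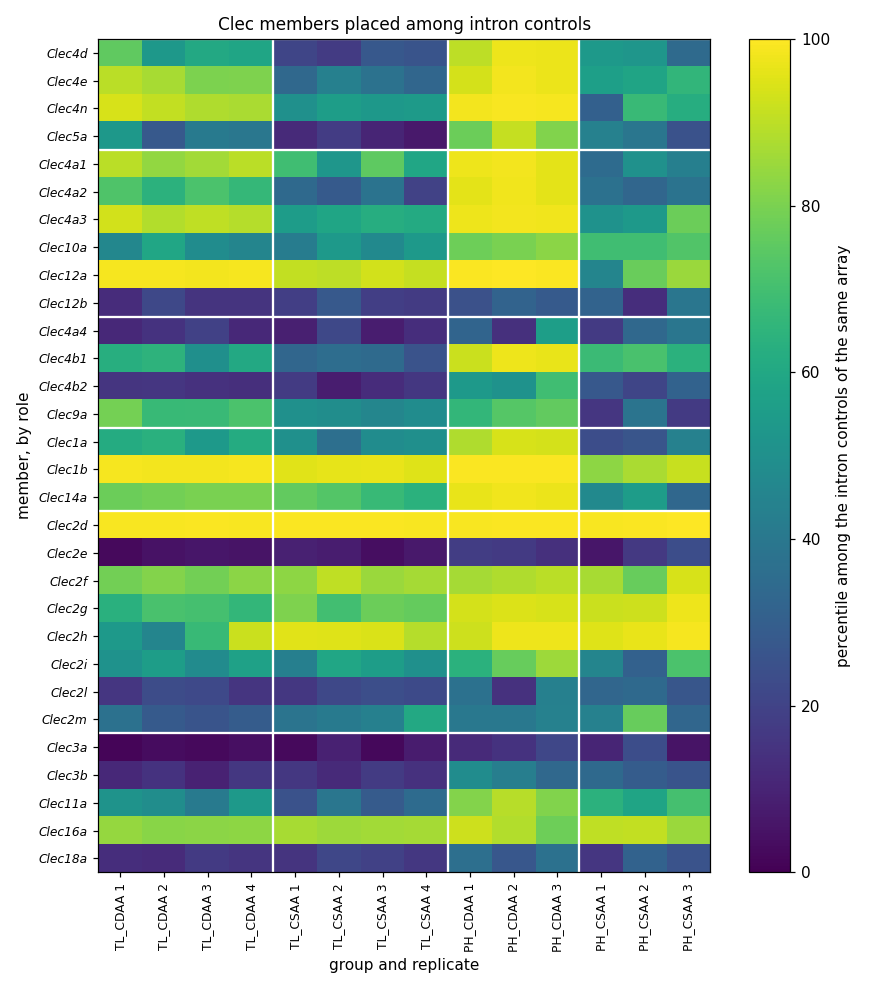
Percentile of each member (rows, by role) among the 5222 intron controls of the same array (columns, by group and replicate), from 0 in dark blue to 100 in yellow. Clec2d is near the top on every array, and 8 members lie above the 95th percentile on all 3 arrays of hepatocytes on CDAA against 2 in hepatocytes on CSAA.

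Among the activating receptors of macrophages, all 4 with a named probe set were higher on CDAA in both tissues, and their median log2 difference was 2.43 in total liver and 3.64 in hepatocytes. The listed set has 5, of which 1 was not analysed here. These are Clec4d (MCL) and Clec4e (Mincle), which bind mycobacterial glycolipids, Clec4n (Dectin-2), which binds fungal mannans, and Clec5a (MDL-1), which signals through the adaptor Tyrobp.

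Clec4e read 8.82, 8.45, 7.86 and 7.92 in total liver on CDAA, against 5.23, 5.67, 5.51 and 5.29 on CSAA. The groups were far apart, with a log2 difference of 2.84 ± 0.22 (SE, n = 4 each; limma adjusted p = 6.3e-06). The hepatocyte arrays read 6.53, 9.20 and 8.83 on CDAA, against 4.32, 4.58 and 4.72 on CSAA, a difference of 3.65 ± 0.65 (SE, n = 3 each; limma adjusted p = 0.012) and at least 1.36-fold. Replicate 1 on CDAA lay well under the others of its group, yet above every CSAA array.

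Clec4d, its neighbour on the chromosome, read 7.48, 6.26, 6.67 and 6.64 in total liver on CDAA and 4.42, 4.17, 4.90 and 4.91 on CSAA. The difference was 2.16 ± 0.26 (limma adjusted p = 0.00015). Hepatocytes gave 5.93, 8.34 and 8.63 on CDAA and 4.21, 4.32 and 3.51 on CSAA, which gave 3.62 ± 0.68 (limma adjusted p = 0.016). The groups did not overlap in either tissue.

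Clec4n had the widest difference of these receptors in hepatocytes. It read 8.92, 11.38 and 11.49 on CDAA, against 3.37, 5.02 and 4.56 on CSAA, a difference of 6.28 ± 0.74 (limma adjusted p = 0.0020). As the CSAA arrays lay under the intron percentile, this is at least 7.23-fold. In total liver it read 9.69, 9.01, 8.64 and 8.57 on CDAA and 6.13, 6.26, 6.25 and 6.44 on CSAA, and the difference was 2.71 ± 0.23 (limma adjusted p = 1.2e-05). Its lowest CDAA array lay above its highest CSAA array in both tissues.

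Clec5a was the dimmest of the set relative to the intron controls, at the 28th to 53rd percentile in total liver on CDAA and the 7th to 18th on CSAA. It read 6.26, 4.95, 5.67 and 5.67 in total liver on CDAA and 3.81, 4.19, 3.72 and 3.47 on CSAA, and the groups did not overlap (1.84 ± 0.26, limma adjusted p = 0.00042). In hepatocytes the values were 4.88, 6.26 and 5.56 on CDAA and 3.85, 3.81 and 3.14 on CSAA, with a difference of 1.96 ± 0.40 (limma adjusted p = 0.022). These 2 differences were close, and their own difference, total liver minus hepatocytes, was -0.12 ± 0.48.

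**Figure D3:**
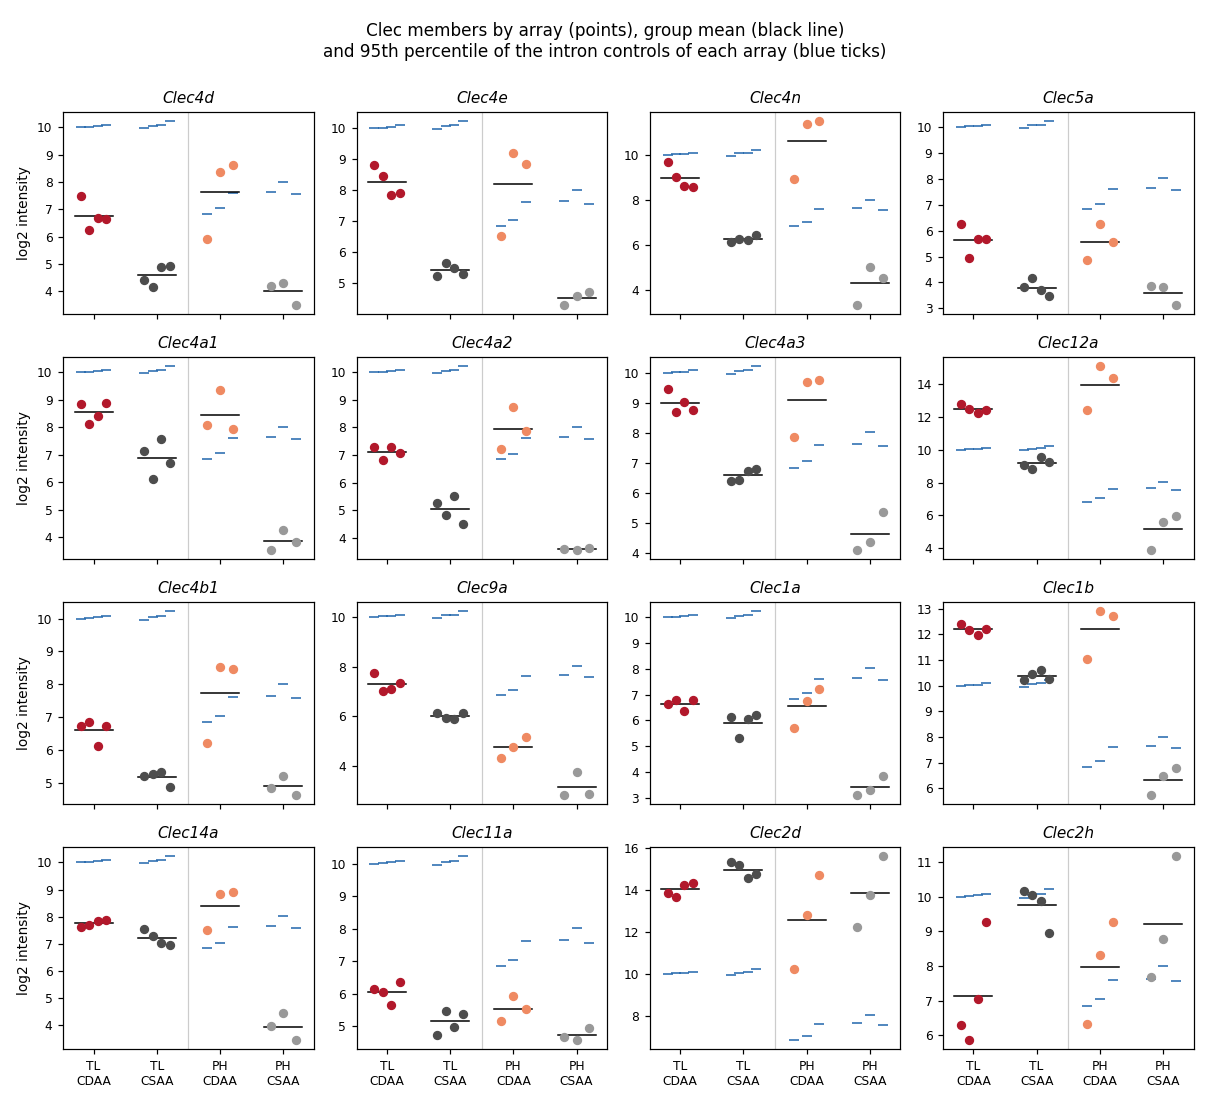
Log2 intensity (y axis, own scale per panel) of 16 members on every array, in total liver (TL) and primary hepatocytes (PH) on CDAA and CSAA, with group means as black lines and each array's 95th intron percentile as a blue tick. For Clec4e, Clec4n and Clec12a the CDAA points lie wholly above the CSAA points in both tissues, and the hepatocyte points of Clec2d run from 10.2 to 15.6 with the diets intermixed.

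The receptors shared by macrophages and dendritic cells split into 4 that were higher on CDAA in both tissues and 2 that passed in neither. The 4 are Clec12a (MICL), an inhibitory receptor for uric acid crystals, and 3 of the DCIR family, Clec4a1, Clec4a2 and Clec4a3, of which Clec4a2 (DCIR) carries an inhibitory motif. The 2 are Clec10a (MGL1), which binds galactose-type sugars, and Clec12b, another inhibitory receptor.

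Clec12a showed the largest difference of all 30 members in each tissue. It read 12.79, 12.45, 12.24 and 12.39 in total liver on CDAA, against 9.06, 8.84, 9.59 and 9.26 on CSAA (3.28 ± 0.19, SE, n = 4 each; limma adjusted p = 8.4e-07). With the CSAA group under the intron percentile, this is at least 5.22-fold. In hepatocytes it read 12.39, 15.08 and 14.39 on CDAA, against 3.91, 5.58 and 5.97 on CSAA, a log2 difference of 8.80 ± 0.77 (SE, n = 3 each; limma adjusted p = 6.0e-04) and at least 74.2-fold. On the hepatocyte arrays it stood at the 99.5th percentile of the intron controls or higher on CDAA, and at the 46th to 85th on CSAA.

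Clec4a3 read 9.48, 8.69, 9.04 and 8.77 in total liver on CDAA and 6.39, 6.44, 6.74 and 6.81 on CSAA (2.40 ± 0.19, limma adjusted p = 8.5e-06). The hepatocyte values were 7.86, 9.70 and 9.77 on CDAA and 4.10, 4.37 and 5.37 on CSAA, a difference of 4.50 ± 0.58 (limma adjusted p = 0.0028) and at least 2.58-fold. The groups were separate in both tissues.

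Clec4a2 read 7.29, 6.83, 7.29 and 7.07 in total liver on CDAA, against 5.26, 4.84, 5.52 and 4.49 on CSAA (2.09 ± 0.22, limma adjusted p = 5.9e-05). In hepatocytes its 3 CSAA arrays lay close together, at 3.61, 3.56 and 3.64, under the CDAA arrays at 7.21, 8.76 and 7.89. That difference was 4.35 ± 0.39 (limma adjusted p = 6.7e-04), at least 1.16-fold against the intron percentile.

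Clec4a1 read 8.84, 8.12, 8.39 and 8.89 in total liver on CDAA and 7.12, 6.12, 7.56 and 6.70 on CSAA, the smallest of the 4 differences there (1.69 ± 0.29, limma adjusted p = 0.0017). In hepatocytes the values were 8.08, 9.35 and 7.92 on CDAA and 3.53, 4.24 and 3.83 on CSAA, a difference of 4.58 ± 0.42 (limma adjusted p = 7.0e-04) and at least 1.64-fold. No CSAA array reached a CDAA array in either tissue.

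Clec10a read 5.90, 6.56, 6.07 and 5.95 in total liver on CDAA and 5.71, 6.18, 5.98 and 6.42 on CSAA, and 4.88, 5.11 and 5.65 in hepatocytes on CDAA and 4.90, 5.11 and 5.10 on CSAA. The groups overlapped in both, with log2 differences of 0.05 ± 0.20 and 0.18 ± 0.28 (limma adjusted p = 0.88 and 0.77). Clec12b lay between the 12th and 40th percentile of the intron controls on all arrays, and its differences were -0.27 ± 0.18 in total liver and -0.19 ± 0.31 in hepatocytes.

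Of the 4 members listed for dendritic cells, Clec9a and Clec4b1 were higher on CDAA in both tissues, and Clec4a4 and Clec4b2 passed in neither. Clec9a (DNGR-1) marks cross-presenting dendritic cells and binds actin filaments of dead cells, and Clec4b1 (DCAR) is an activating receptor. The median log2 difference of the 4 was 0.73 in total liver and 1.26 in hepatocytes.

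Clec9a read 7.73, 7.0, 7.08 and 7.35 in total liver on CDAA, above 6.12, 5.92, 5.89 and 6.12 on CSAA (1.28 ± 0.18, limma adjusted p = 0.00041). Hepatocytes gave 4.33, 4.75 and 5.17 on CDAA and 2.84, 3.77 and 2.85 on CSAA (1.60 ± 0.36, limma adjusted p = 0.034), all under the intron percentile. The groups did not overlap in either tissue.

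Clec4b1 read 6.74, 6.86, 6.12 and 6.73 in total liver on CDAA and 5.21, 5.26, 5.33 and 4.88 on CSAA (1.44 ± 0.19, limma adjusted p = 0.00025). In hepatocytes the CDAA arrays, at 6.21, 8.52 and 8.46, lay above the CSAA arrays, at 4.85, 5.19 and 4.63 (2.84 ± 0.60, limma adjusted p = 0.027). Its neighbour Clec4b2 had differences of 0.13 ± 0.19 in total liver and 0.91 ± 0.33 in hepatocytes (limma adjusted p = 0.65 and 0.17). Clec4a4 (DCIR2) had 0.18 ± 0.23 and -0.07 ± 0.45 (limma adjusted p = 0.62 and 0.95). Clec4a4 and Clec4b2 were thus the 2 of the 9 consecutive genes from Clec4a1 to Clec4e that did not pass in either tissue, and the other 7 were higher in both.

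Calls of 5 members in hepatocytes depended on which arrays were in the fit. Leaving out any hepatocyte array except replicate 1 on CDAA lost 3 to 5 of these calls. Of the 6 fits with 1 array left out, Clec4b1 and Clec5a did not pass in 5, Clec4d and Clec9a in 4 and Clec4e in 3. Without replicate 1 on CSAA, or without replicate 2 on CDAA, 8 members passed, and none of these 5 did. Over all probe sets, 1090 to 3221 passed in hepatocytes with 1 array left out, against 1883 with all arrays. With 1 array left out, the log2 differences of these 5 members stayed at 2.44 to 3.60 for Clec4b1, 3.13 to 4.48 for Clec4d, 3.15 to 4.48 for Clec4e, 1.62 to 2.31 for Clec5a and 1.39 to 1.91 for Clec9a. Replicate 1 on CDAA was the lowest of its group for 12 of the 13 members that passed. Without it the 13 passed as well.

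Most macrophage markers moved with these receptors, and fewer dendritic cell markers did. Of 11 macrophage markers measured, 9 were higher on CDAA in total liver and 11 in hepatocytes, with median log2 differences of 1.92 and 4.99. In total liver 1 was lower at an unadjusted p under 0.05. Their summed level (log2 of the sum of intensities) was 15.9 to 16.7 in total liver on CDAA and 13.1 to 13.9 on CSAA. In hepatocytes it was 16.8 to 18.8 on CDAA and 8.67 to 9.38 on CSAA. On CSAA all 11 lay wholly under the intron percentile in hepatocytes, and on CDAA 1 did. Lyz2, the lysozyme of myeloid cells, differed by 3.59 ± 0.23 in total liver and 10.26 ± 0.71 in hepatocytes (limma adjusted p = 2.0e-06 and 2.6e-04), and Cd5l, a macrophage product, by 3.20 ± 0.19 and 10.23 ± 0.53 (limma adjusted p = 9.1e-07 and 8.9e-05). Of 12 dendritic cell markers 5 were higher in total liver and 3 in hepatocytes (medians 0.44 and 0.47). The 3 were Sirpa (6.22), Itgax (2.16) and Irf8 (2.32), which in total liver differed by 3.41, 2.86 and 1.32. Whether their RNA came from dendritic cells was not tested. The list's summed level, which follows its brightest genes, was 14.38 to 15.04 on CDAA and 11.01 to 11.79 on CSAA in total liver. In hepatocytes it was 11.7 to 15.1 on CDAA and 8.52 to 8.94 on CSAA. Under the intron percentile lay 11 of the 12 in total liver on either diet, 10 in hepatocytes on CDAA and 12 on CSAA. Of 7 neutrophil markers 3 were higher in each tissue. None of 4 B cell or 5 cholangiocyte markers passed by limma in either tissue, and at an unadjusted p under 0.05 there was 1 of each, higher in hepatocytes. The part of these markers in the receptors' differences was not tested, and in such bulk samples more cells of a type and more RNA per cell cannot be told apart.

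**Figure D4:**
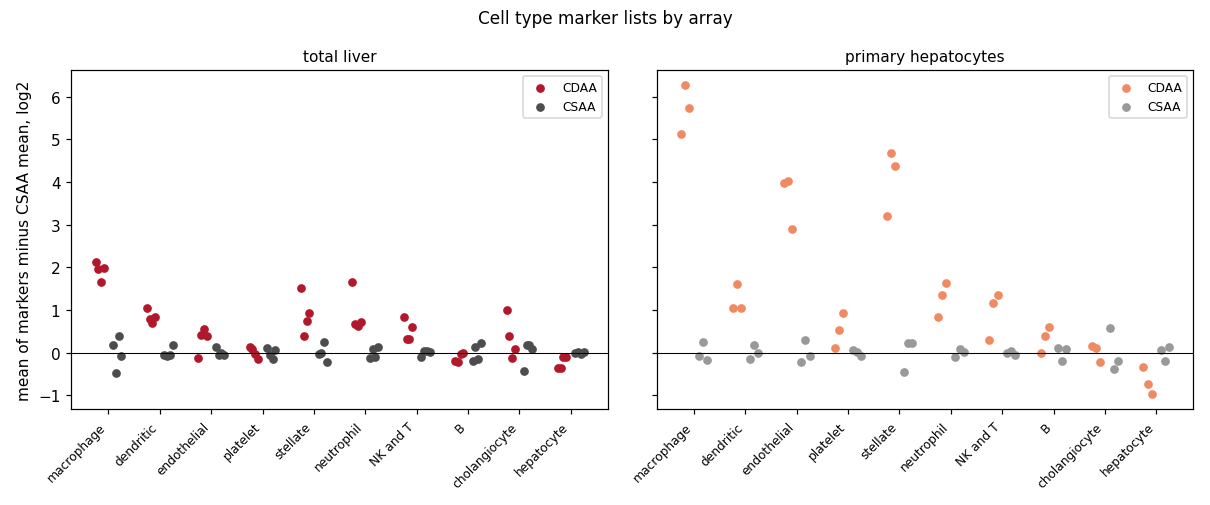
Mean log2 level of each cell type marker list on every array, minus the list's mean on CSAA in the same tissue (y axis), for total liver (left) and primary hepatocytes (right), with CDAA arrays left of CSAA arrays. In hepatocytes the macrophage, endothelial and stellate lists lie wholly above CSAA on CDAA, and so, by less, do the dendritic, platelet, neutrophil, and NK and T lists. The B and cholangiocyte lists overlap between the diets there, and the hepatocyte list lies below CSAA on CDAA.

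All 3 members listed for endothelial cells and platelets were higher on CDAA in both tissues. Clec1b (CLEC-2) is the platelet receptor for podoplanin and is also found on mouse Kupffer cells, Clec14a is an endothelial surface protein of growing vessels, and Clec1a (MelLec) binds fungal melanin. Their median log2 difference was 0.73 in total liver and 4.45 in hepatocytes.

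Clec1b read 12.42, 12.15, 11.99 and 12.21 in total liver on CDAA, against 10.24, 10.45, 10.60 and 10.25 on CSAA. All 8 arrays lay above the intron percentile, and the difference of 1.81 ± 0.15 (limma adjusted p = 1.1e-05) is 3.5-fold. In hepatocytes it read 11.06, 12.90 and 12.72 on CDAA, against 5.74, 6.47 and 6.81 on CSAA, a difference of 5.89 ± 0.53 (limma adjusted p = 6.6e-04) and at least 22.4-fold.

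Clec14a read 7.62, 7.71, 7.84 and 7.87 in total liver on CDAA and 7.55, 7.31, 7.02 and 6.94 on CSAA. The groups were separate by a narrow margin, and the difference was 0.56 ± 0.16 (limma adjusted p = 0.033). In hepatocytes the gap was wide, with 7.5, 8.84 and 8.89 on CDAA and 3.97, 4.44 and 3.46 on CSAA (4.45 ± 0.45, limma adjusted p = 0.0010, at least 1.59-fold).

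Clec1a read 6.64, 6.80, 6.35 and 6.78 in total liver on CDAA and 6.13, 5.30, 6.04 and 6.19 on CSAA (0.73 ± 0.21, limma adjusted p = 0.030). On the hepatocyte arrays it read 5.71, 6.75 and 7.20 on CDAA and 3.12, 3.29 and 3.86 on CSAA (3.13 ± 0.42, limma adjusted p = 0.0036). In total liver the calls of Clec14a and Clec1a were lost in 9 and 7 of 15 alternatives, and those of Clec1b in none.

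For 11 of 14 endothelial markers too, the diet effect was smaller in total liver than in hepatocytes by the test over all 14 arrays. The same held for 8 of 11 macrophage markers and 6 of 7 stellate cell markers, and for 0 of 12 dendritic cell markers. Over all probe sets it held for 2.36%. On simulated data this fit, with 1 spread for both tissues, made more false calls than its threshold allows. Marker counts with a spread estimated for each tissue are not given. The median difference of the effects was -3.61 for the endothelial and -3.61 for the macrophage markers, so the pattern was not particular to endothelial markers. In total liver 4 of 14 endothelial markers were higher on CDAA, with a median log2 difference of 0.22 and a summed level of 14.55 to 15.44 on CDAA and 14.78 to 15.01 on CSAA. In hepatocytes 12 of 14 were higher, with a median of 3.61 and a summed level of 15.5 to 16.5 on CDAA and 10.9 to 11.5 on CSAA. Wholly under the intron percentile were 3 of them in hepatocytes on CDAA and 10 on CSAA. The stellate cell markers did likewise, with 3 of 7 higher in total liver and 7 of 7 in hepatocytes. Of 7 platelet markers none passed in total liver by limma (1 higher at an unadjusted p under 0.05) and Pf4 passed in hepatocytes (2.81 ± 0.55, limma adjusted p = 0.019). All 7 lay under the intron percentile in total liver on either diet and in hepatocytes on CSAA, and 6 in hepatocytes on CDAA. The part of these markers in the results for Clec1b, Clec14a and Clec1a was not tested.

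Most of the Clec2 genes code for Clr proteins, among them ligands of the NKR-P1 receptors of NK cells. Clec2l lies apart from the others on chromosome 6, between Klrg2 and Hipk2, and is counted with them here by its name. Of 8 Clec2 genes with a named probe set, 4 were lower on CDAA in total liver (9.05% of all probe sets) and none was higher. Limma called none higher there at an unadjusted p under 0.05 either. In hepatocytes none passed in either direction, also at an unadjusted p under 0.05. Of all probe sets, 1.95% were lower there by the adjusted limma p. On simulated data a log2 change of 1 was recovered for 3% of changed genes in hepatocytes and 74% in total liver. The missing calls in hepatocytes thus do not show that the tissues differed. The median log2 difference of the 8 was -0.58 in total liver and -0.59 in hepatocytes.

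Clec2d (Clr-b), the ligand of an inhibitory NK receptor, was at or above the 98th percentile of the intron controls on every array. It read 13.86, 13.67, 14.23 and 14.35 in total liver on CDAA, under 15.34, 15.18, 14.58 and 14.77 on CSAA (-0.94 ± 0.21, limma adjusted p = 0.0088). With the spread of all 14 arrays in 1 fit this did not pass (limma adjusted p = 0.49). The hepatocyte values were 10.21, 12.80 and 14.70 on CDAA and 12.26, 13.76 and 15.61 on CSAA. Arrays of the same diet lay farther apart there than the diets' means, whose difference was -1.31 ± 1.20 (limma adjusted p = 0.59), and -2.37 to -0.13 with 1 array left out. On both diets the hepatocyte values rose with the replicate number, and CDAA lay under CSAA at each number. With the replicate number as a block in the fit, Clec2d did not pass in hepatocytes either.

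Clec2h (Clr-f) had the largest difference among the Clec2 genes in total liver. It read 6.31, 5.87, 7.05 and 9.28 on CDAA, against 10.18, 10.04, 9.88 and 8.96 on CSAA (-2.64 ± 0.60, limma adjusted p = 0.0097). The groups overlapped through replicate 4 of each diet, and the call was kept in all 15 alternatives, with differences of -3.36 to -2.18. In hepatocytes the groups overlapped as well, with 6.33, 8.32 and 9.26 on CDAA and 7.68, 8.78 and 11.17 on CSAA (-1.24 ± 1.0, limma adjusted p = 0.54, and -2.0 to -0.26 with 1 array left out). Here too the values rose with the replicate number on both diets, CDAA lay under CSAA at each number, and the block by number gave no call.

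Clec2f read 7.68, 7.93, 7.76 and 8.04 in total liver on CDAA and 8.11, 8.94, 8.31 and 8.62 on CSAA (-0.64 ± 0.19, limma adjusted p = 0.034). Clec2m read 5.44, 4.97, 4.87 and 5.07 on CDAA and 5.51, 5.54, 5.79 and 6.75 on CSAA (-0.81 ± 0.26, limma adjusted p = 0.048). Both pairs of groups were separate by a narrow margin, and the calls were lost in 6 and 7 of 15 alternatives. In hepatocytes the groups overlapped, with Clec2f at 5.58, 5.79 and 6.40 on CDAA and 6.16, 5.54 and 7.30 on CSAA, and Clec2m at 3.36, 3.41 and 3.77 on CDAA and 3.85, 5.55 and 3.46 on CSAA.

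The other Clec2 genes passed in neither tissue. In total liver Clec2g differed by -0.53 ± 0.20 (limma adjusted p = 0.084) and Clec2e, Clec2l and Clec2i by -0.26, -0.08 and 0.08. In hepatocytes Clec2g differed by -0.81 ± 0.50, Clec2i, a ligand of the activating receptor Klrb1f, by 0.89 ± 0.53, and Clec2l and Clec2e by -0.20 and -0.09. Of the 6 listed partners, 2 NK receptors of the NKR-P1 group were higher on CDAA in total liver, Klrb1f by 1.36 ± 0.24 and Klrb1c by 1.57 ± 0.29 (limma adjusted p = 0.0022 and 0.0028). In hepatocytes Klrb1c passed (2.62 ± 0.57, limma adjusted p = 0.030). Among 9 markers of NK and T cells, 3 were higher and 1 lower in total liver and 2 higher in hepatocytes. Their summed level was 8.71 to 9.35 on CDAA and 8.51 to 8.80 on CSAA in total liver, and 7.51 to 9.12 on CDAA and 7.32 to 7.74 on CSAA in hepatocytes. All 9 were under the intron percentile in total liver on either diet.

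Of the 5 secreted or intracellular members Clec11a, a secreted growth factor of blood and bone progenitors, passed in total liver. It read 6.14, 6.05, 5.66 and 6.35 on CDAA, above 4.74, 5.46, 4.98 and 5.38 on CSAA (0.91 ± 0.20, limma adjusted p = 0.0086). In hepatocytes it read 5.15, 5.91 and 5.54 on CDAA and 4.66, 4.57 and 4.95 on CSAA. Those groups were separate too, with a log2 difference of 0.81 ± 0.28 that did not pass (limma adjusted p = 0.15).

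Clec16a, an intracellular protein of the autophagy pathway, read 8.12, 7.98, 8.08 and 8.08 in total liver on CDAA, under 8.53, 8.28, 8.47 and 8.65 on CSAA. The difference of -0.42 ± 0.14 just missed the threshold (limma adjusted p = 0.0503). On the hepatocyte arrays it read 6.26, 5.84 and 5.31 on CDAA and 6.67, 6.97 and 5.96 on CSAA, with overlap (-0.73 ± 0.37, limma adjusted p = 0.31).

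Clec3b (tetranectin), a plasma protein that binds plasminogen, read 3.84, 4.08, 3.69 and 4.21 in total liver on CDAA and 4.15, 3.80, 4.23 and 4.14 on CSAA. In hepatocytes it read 3.65, 3.52 and 3.41 on CDAA and 3.51, 3.39 and 3.19 on CSAA. The groups overlapped in both tissues, all under the median of the intron controls, with differences of -0.12 ± 0.16 and 0.16 ± 0.23 (limma adjusted p = 0.63 and 0.75). Clec3a and Clec18a lay below the 40th percentile of the intron controls on every array and differed by -0.33 and -0.21 in total liver and by -0.01 and 0.10 in hepatocytes.

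Most of the signalling genes downstream of the activating receptors were higher in both tissues. Of 12 measured of 14 listed, 9 passed in total liver, all higher, with a median log2 difference of 1.37, and 7 in hepatocytes, all higher, with a median of 1.54. The adaptors that pair with these receptors led. Fcer1g, the partner of Clec4e, Clec4d and Clec4n, averaged 11.2 ± 0.49 in total liver on CDAA and 8.07 ± 0.26 on CSAA (SD, n = 4 each), and 13.6 ± 1.36 in hepatocytes on CDAA and 4.58 ± 0.78 on CSAA (SD, n = 3 each). The log2 differences were 3.11 ± 0.24 and 9.04 ± 0.69 (SE; limma adjusted p = 5.8e-06 and 3.8e-04). Tyrobp, the partner of Clec5a, differed by 3.08 ± 0.17 and 7.96 ± 0.93 (limma adjusted p = 5.5e-07 and 0.0020).

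The kinase Syk differed by 1.72 ± 0.22 in total liver and 2.14 ± 0.26 in hepatocytes (limma adjusted p = 2.4e-04 and 0.0024), the exchange factor Vav1 by 1.95 ± 0.28 and 2.77 ± 0.44 (limma adjusted p = 5.4e-04 and 0.0072). Card9, which links Syk to NF-kB, averaged 7.23 ± 0.48 in total liver on CDAA and 7.26 ± 0.25 on CSAA (SD), and passed in neither tissue (-0.04 ± 0.23 and -0.30 ± 0.27, SE; limma adjusted p = 0.93 and 0.58). Of the 3 phosphatases that act downstream of inhibitory motifs, Inpp5d (SHIP1) was higher in both tissues, by 2.22 ± 0.23 and 3.22 ± 0.51 (limma adjusted p = 4.6e-05 and 0.0071). Ptpn6 (SHP-1) passed in total liver (1.66 ± 0.24, limma adjusted p = 6.1e-04) and not in hepatocytes (2.85 ± 0.74, limma adjusted p = 0.059).

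Genes with a C-type lectin domain that carry another name served as a comparison. Of 34 measured, 11 were higher and 5 lower in total liver, with a median log2 difference of 0.00, and 12 were higher and 1 lower in hepatocytes, with a median of 0.59. Cd72, an inhibitory receptor, differed by 3.08 ± 0.25 in total liver and 6.34 ± 0.60 in hepatocytes (limma adjusted p = 8.3e-06 and 8.2e-04). Mbl1, a mannose-binding plasma lectin made by hepatocytes, was lower in both, by -1.57 ± 0.18 and -1.63 ± 0.30 (limma adjusted p = 9.5e-05 and 0.014). Cd93, an endothelial and myeloid surface protein, differed by 1.80 ± 0.14 and 1.79 ± 0.38 (limma adjusted p = 6.2e-06 and 0.026). Klrk1 (NKG2D), an activating NK receptor, differed by 0.74 ± 0.14 and 1.95 ± 0.47 (limma adjusted p = 0.0028 and 0.043). Selp, the P-selectin of platelets and endothelium, differed by 1.36 ± 0.26 and 3.14 ± 0.28 (limma adjusted p = 0.0033 and 6.8e-04). Cd69, an activation marker of lymphocytes, passed in hepatocytes (3.09 ± 0.31, limma adjusted p = 0.0010) and not in total liver (0.42 ± 0.22, limma adjusted p = 0.21). Mrc1, the mannose receptor of macrophages and sinusoidal endothelium, passed in hepatocytes (4.46 ± 0.47, limma adjusted p = 0.0013) and not in total liver (0.36 ± 0.15, limma adjusted p = 0.12).

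For all 13 members higher in both tissues the difference was larger in hepatocytes than in total liver. These 13 were chosen by passing in both tissues. On simulated data a log2 change of 1 was recovered for 3% of changed genes in hepatocytes and 74% in total liver. The choice thus favours members with large hepatocyte differences, and the count of 13 does not by itself show a larger effect there. The difference of the diet effects, total liver minus hepatocytes, was tested in 1 fit over all 14 arrays, in which 2.57% of all probe sets passed, 2.36% with a lower effect in total liver. Of the members 7 passed, all with the smaller effect in total liver, and the median over the members was -0.32, beside 0.02 over all probe sets. They were Clec12a (-5.52 ± 0.75), Clec1b (-4.08 ± 0.51), Clec14a (-3.90 ± 0.44), Clec4n (-3.57 ± 0.74), Clec4a1 (-2.90 ± 0.52), Clec1a (-2.40 ± 0.46) and Clec4a2 (-2.26 ± 0.44). As the hepatocyte arrays spread more, the difference was also tested with a spread of each tissue's own, an alternative added after the data were seen, in which 0.869% of all probe sets passed. On simulated data the fit with 1 spread made more false calls than its threshold allows, and this one did not. There 3 of the 7 passed, Clec14a (limma-based adjusted p = 0.015), Clec1b (0.023) and Clec12a (0.030). The other 4 had adjusted p of 0.056 to 0.12. Without replicate 1 of the hepatocytes on CDAA, 11 members passed in the fit with 1 spread, among them Clec4a3, Clec4b1, Clec4d and Clec4e. Of all 22206 probe sets 2265 passed there, against 570 with all arrays. The tissues also differed in preparation and RNA kit, which cannot be told apart from the tissue here. With all arrays Clec4e (-0.81 ± 0.66) did not pass, and with 1 array left out its value ran from -1.64 to -0.31. Clec9a (-0.32 ± 0.38) and Clec5a did not pass either.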

How the data were processed

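RNA from total liver and primary hepatocytes was hybridized to Clariom S arrays after biotin labelling with the WT PLUS kit. Per the labels' protocols, hepatocyte RNA was extracted with the RNeasy Plus kit and liver RNA with the RNeasy Lipid Tissue kit. In the deposited table the authors give log2 intensities from RMA, per the submitters' processing notes, in a version not given in the sources used here. RMA corrects background, normalizes quantiles and summarizes each probe set. The table holds 28846 probe sets, of which 6640 controls were left out and 22206 were tested with no filter on dim ones. Gene symbols came from the platform annotation given with the series: 19572 tested probe sets had 1 symbol, 2634 had none and 0 had several. Every column was mapped to a sample.

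The diets were compared within each tissue with limma 3.58.1 in R 4.3.3, on the arrays of that tissue alone, because array medians differed between the tissues and hepatocyte arrays spread more. The difference of the 2 diet effects came from 1 fit over all 14 arrays. Tests were two-sided and moderated, adjusted by Benjamini-Hochberg over the 22206 probe sets, at a threshold of 0.05. SE is the moderated standard error, and p-values measure the spread between the preparations named in the labels. A group counted as under background when none of its arrays reached its own intron controls' 95th percentile. The number of arrays limits the precision.

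Members and lists were chosen with earlier results of these data known. Values by array were given for members past the threshold in either tissue and for a set of receptors named by role, and other genes were drawn from up to 4 per list with the smallest p among those past the threshold in a tissue, not all of which are printed, plus Syk, Card9, Fcer1g, Tyrobp and Ptpn6. The correlation of residuals between arrays with equal replicate numbers was -0.13 to 0.02 for total liver and 0.35, -0.21 and 0.26 for hepatocytes, so the numbers were not taken to pair the arrays. Alternatives were 1 fit over all arrays, trend and robust moderation, array weights, joint quantile normalization, the dimmest 30% left out, centring on array medians, the replicate number as a block, each array left out, and the 90th and 99th intron percentiles. A spread per tissue was added after the data were seen. The code was tested on simulated data. There the fits per tissue held false calls near the threshold, but the fit with 1 spread for the difference of the effects, and that with array weights, made more false calls than the threshold allows. The spread per tissue, added for this reason, did not. Its degrees of freedom, the smaller of the 2 tissues', were chosen on simulated data after a Satterthwaite estimate had also made too many.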

Additional observations from a re-analysis of the deposited data

Results flagged for a closer look

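The diet effect differed between the tissues for 7 members in the fit over all 14 arrays, as total liver minus hepatocytes on the log2 scale: Clec12a by -5.52, Clec1b by -4.08, Clec14a by -3.90, Clec4n by -3.57, Clec4a1 by -2.90, Clec1a by -2.40 and Clec4a2 by -2.26. In each case the effect was positive in both tissues and larger in hepatocytes. With a spread of each tissue's own, an alternative added after the data were seen, Clec12a, Clec1b and Clec14a passed. Summed macrophage markers, at 16.8 to 18.8 in hepatocytes on CDAA and 8.67 to 9.38 in hepatocytes on CSAA, moved with these members. So did summed endothelial markers, at 15.45 to 16.47 in hepatocytes on CDAA and 10.90 to 11.47 on CSAA. Summed stellate cell markers did as well, at 16.43 to 18.35 and 9.37 to 11.53. The part of any of these markers in the differences was not tested.

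Clec12b read 4.82 on replicate 2 of total liver on CSAA, apart from the other 3 arrays of its group at 4.29 to 4.33. Chance marks about 1 in 20 groups in this way. The value lies at the 28th percentile of that array's intron controls.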

How the results depend on the processing

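The call rates over all probe sets depended on the spread used. In 1 fit over all 14 arrays 2279 probe sets passed in total liver and 4158 in hepatocytes, against 4613 and 1883 in the fits per tissue. The members lost in total liver were Clec14a, Clec1a, Clec2d, Clec2f and Clec2m, and those gained in hepatocytes Clec11a and Clec4b2. Array weights gave 4025 probe sets in hepatocytes, and for the difference of the effects 2725 probe sets and 11 members, against 570 and 7. A spread per tissue gave 193 and 3 there. Leaving out 1 array gave 1090 to 3221 probe sets and 8 to 13 members in hepatocytes. For the difference of the effects it gave 396 to 2265 probe sets and 6 to 11 members, the highest of each without replicate 1 of the hepatocytes on CDAA. In total liver it gave 3495 to 4131 probe sets and 14 to 19 members. With the replicate number as a block 3855 probe sets and 15 members passed in total liver (without Clec14a, Clec1a and Clec2m), 2074 and 13 in hepatocytes, and 615 and 8 for the difference.

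Centring on array medians moved the median log2 difference of all probe sets by -0.14 in total liver and -0.16 in hepatocytes. Of the calls in total liver 33.9% were then higher on CDAA, against 56.4% as deposited, and in hepatocytes 64.6%, against 77%. Above the 99th intron percentile lay 1 member in total liver on CDAA, 1 in total liver on CSAA, 2 in hepatocytes on CDAA and 1 in hepatocytes on CSAA. Above the 90th lay 13 in hepatocytes on CDAA.

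Direction changed only among members and genes that had not passed. With joint quantile normalization, total liver gave -0.0487 for Clec10a, -0.0546 for Clec2i, 0.0351 for Clec2l and 0.0210 for Clec3b, and hepatocytes 0.049999 for Clec2e, 0.127 for Clec3a and 0.107 for Clec4a4. Centring gave -0.0890 for Clec10a, -0.0633 for Clec2i and -0.00423 for Clec4b2 in total liver and -0.0556 for Clec18a in hepatocytes, and array weights -0.00646 for Clec18a. Leaving out 1 array gave -0.0981 to 0.164 for Clec10a, -0.0701 to 0.165 for Clec2i, -0.0422 to 0.239 for Clec4b2 and -0.248 to 0.126 for Card9 in total liver. In hepatocytes it gave -0.0426 to 0.343 for Clec10a, -0.459 to 0.00282 for Clec12b, -0.0591 to 0.267 for Clec18a, -0.294 to 0.0553 for Clec2e, -0.810 to 0.0682 for Clec2f, -0.477 to 0.0998 for Clec2l, -0.194 to 0.222 for Clec3a and -0.526 to 0.290 for Clec4a4. Averaging probe sets per gene was not run, as each member had 1. Most members lay among the intron controls, which limits what their intensities can show.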
